A study of Mus musculus with 6 samples.

Results

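A set of 9 phosphatidylserine receptors and bridging ligands that act upstream of the ELMO-DOCK module were followed in the muscle of mice without Dock3. The set was fixed by symbol and holds 9 of the 54393 genes of the deposited table: the stabilins Stab1 and Stab2, the adhesion receptors Adgrb1 and Adgrb3, the receptor tyrosine kinases Mertk, Axl and Tyro3, and the secreted bridging proteins Gas6 and Mfge8. RNA was sequenced from the tibialis anterior, a shin muscle that lifts the foot, of adult mice, with n = 3 wild-type (WT) muscles whose sample names carry the prefix C57 and n = 3 Dock3 knockout (Dock3 KO) muscles. The labels give no sex, no exact age and no description of the knockout allele, and no treatment was named for either group. The numbers in the sample names are used here as replicate numbers (WT 1, 3 and 4, and Dock3 KO 1, 2 and 3). Nothing in the labels says that the samples are separate animals, so p-values measure the spread between these samples, which may be technical.

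Phosphatidylserine is a lipid that living cells keep on the inner face of the plasma membrane. It appears on the outer face of dying cells, where it marks them for engulfment, and for a short time on myoblasts that are about to fuse into muscle fibres. Some receptors bind the lipid directly, while the TAM kinases (Tyro3, Axl and Mertk) bind it through the bridging proteins Gas6 and protein S, and the integrins of the alpha v family through Mfge8. Several of these receptors pass the signal to ELMO proteins and to a DOCK exchange factor, which switches on the small GTPase Rac and so the actin cytoskeleton. Dock3 is such an exchange factor, found mostly in brain.

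Values are the authors' normalized counts, which put the samples on a common scale but are not divided by gene length. Summed over all genes they came to between 23520223 and 33393950 per sample, and between 23860 and 25185 genes were listed above 0. Dock3, the targeted gene, had 169, 161 and 118 normalized counts in WT 1, 3 and 4, against 22.4, 1.78 and 1.54 in Dock3 KO 1, 2 and 3. Every knockout value was below every WT value, although Dock3 KO 1 stood above the other knockouts. The muscle fibre marker Ckm was listed between 189939 and 257236 in the 6 samples. Gm42418 and Lars2 together took 17.9% and 20.3% of the summed values in Dock3 KO 1 and 2, and between 3.00% and 3.64% in the other 4 samples.

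WT 1 stood apart in another way. A list of 14 markers of brain neurons and glia, written after the data had been seen, summed to 1211 normalized counts in WT 1, to 340 in Dock3 KO 1, and to 153, 130, 95.8 and 114 in WT 3, WT 4, Dock3 KO 2 and Dock3 KO 3. In WT 1, 13 of the 14 markers had their highest value. Snap25, a protein of the neuronal synapse, was listed at 247 in WT 1 and 74.6 in Dock3 KO 1, and between 0 and 4.999 in the other 4 samples. Neurod1, a neuronal transcription factor, was listed at 14.5 in WT 1, 1.37 in Dock3 KO 1 and 0 in the other 4. Of the 9 brain markers that were tested, 8 had a log2 difference below 0 with all samples and 3 without WT 1, where the median turned from -1.13 to 0.51.

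To show what lies in front of the genes that the results turn on, the stretches upstream of the transcription start are printed for the stabilin pair, of which Stab2 has the smallest p of the set, and for Gas6 and Axl, the ligand and receptor with the highest levels per exon length. The stretches come from RefSeq (GRCm38.p6) and are read along the gene's own strand, and the one of Stab2 ends where the GENCODE M21 model of the gene begins. Capitals mark matches, on both strands, to the GC box GGGCGG, the CCAAT box CCAAT, the TATA box TATAAA and the E-box CANNTG.
Stab1, chr14:31168642-31168891, minus strand: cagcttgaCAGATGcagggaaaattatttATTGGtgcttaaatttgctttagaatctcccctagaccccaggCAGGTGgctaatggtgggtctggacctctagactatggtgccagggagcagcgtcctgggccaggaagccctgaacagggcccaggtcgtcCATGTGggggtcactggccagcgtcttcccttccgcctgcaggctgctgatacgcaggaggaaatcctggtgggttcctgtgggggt
Stab2, chr10:87008026-87008192, minus strand: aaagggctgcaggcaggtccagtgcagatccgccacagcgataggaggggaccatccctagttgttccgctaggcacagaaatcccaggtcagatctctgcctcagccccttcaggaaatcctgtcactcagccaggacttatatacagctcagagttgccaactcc
Gas6, chr8:13494536-13494785, minus strand: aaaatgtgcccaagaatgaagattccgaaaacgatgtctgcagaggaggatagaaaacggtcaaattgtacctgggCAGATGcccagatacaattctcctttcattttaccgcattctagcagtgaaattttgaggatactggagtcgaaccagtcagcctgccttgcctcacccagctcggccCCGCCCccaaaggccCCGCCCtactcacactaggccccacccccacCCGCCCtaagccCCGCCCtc
Axl, chr7:25788734-25788983, minus strand: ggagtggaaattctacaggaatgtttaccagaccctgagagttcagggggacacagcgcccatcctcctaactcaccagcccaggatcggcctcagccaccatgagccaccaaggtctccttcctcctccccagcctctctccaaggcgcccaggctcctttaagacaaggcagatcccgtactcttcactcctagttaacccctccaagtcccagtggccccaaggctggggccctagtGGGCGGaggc

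RefSeq promoters were matched for 8 of the 9 genes, all but Adgrb1. In the 250 bases upstream of the start, a GC box was found in 6 of these 8 and in 32.9% of 27025 promoters of the same length. All 3 TAM kinases, both bridging ligands and Adgrb3 held at least 1 GC box, with 4 each in Gas6 and Mfge8, 3 each in Mertk and Tyro3, 2 in Adgrb3 and 1 in Axl. Stab1 and Stab2 held none. No exact match to TATAAA was found in any of the 8, against 12.97% of all promoters, and looser TATA-like letters were not searched. The CCAAT box was found once each in Stab1 and Adgrb3, and in 34.5% of all promoters. E-boxes were found in Stab1 (3), Adgrb3 (2), Gas6 (1) and Mfge8 (1), and in 66.0% of all promoters. Stab2 held none of the motifs searched and 3 CpG dinucleotides, while Tyro3 held 24, where the median promoter held 6. The RefSeq start of Tyro3 lies 1781 bases inside its GENCODE M21 model, so its window lies within that gene model. These matches describe letters in a window and not bound sites.

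The 9 genes spanned a wide range of levels. Per kilobase of merged exons, which allows genes to be compared, Gas6 was highest in WT muscle at 722 ± 37.3 normalized counts per kb (SD, n = 3), followed by Axl at 581 ± 25.9, Mfge8 at 188 ± 15.3 and Stab1 at 100.2 ± 20.9. Mertk at 22.1 ± 3.34 and Stab2 at 21.9 ± 4.90 came next, and their WT values overlapped. Tyro3, Adgrb1 and Adgrb3 were lowest, at 3.84 ± 3.32, 2.98 ± 4.02 and 1.48 ± 1.05, and overlapped one another. Among the other neighbours in this order, no WT values overlapped. In Dock3 KO the order was the same except that Adgrb3 stood above Adgrb1, and Mertk, at 25.2 normalized counts per kb, no longer overlapped Stab2, at 10.5. With the length of the longest transcript in place of the merged exons, Gas6 and Axl overlapped at 722 and 685 per kb in WT. Mfge8 rose to 378 per kb and Stab1 to 129, and Stab2, at 23.3, stood above Mertk, at 22.2, with overlap. Adgrb3 rose to 4.96 per kb, above Adgrb1 at 3.45. The merged exons of Adgrb3 (18.559 kb) are much longer than its longest transcript (5.53 kb).

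**Figure D1:**
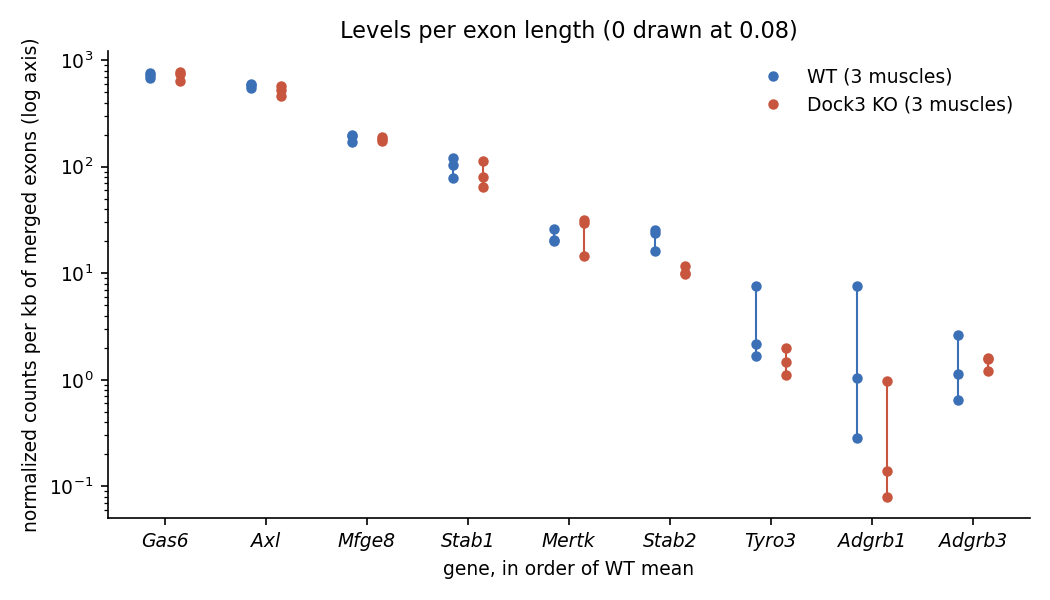
Normalized counts per kilobase of merged exons for the 9 genes, on a log axis, in order of the WT mean. Points are the 3 WT (blue) and 3 Dock3 KO (red) muscles and lines join the lowest and highest; Gas6 and Axl are highest, and Tyro3, Adgrb1 and Adgrb3 lie lowest, each with 1 WT point above the others.

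The comparison asks whether transcripts of these upstream receptors and ligands changed in muscle that lacks Dock3. By limma, with p-values adjusted by Benjamini-Hochberg over 16031 genes tested, none of the 9 passed the threshold of 0.05, where 1.03% of all genes tested did (94 lower and 71 higher in Dock3 KO). At the unadjusted level of 0.05, 1 of the 9 passed, Stab2, and 10.5% of all genes tested passed. The median log2 difference (Dock3 KO minus WT, on normalized count + 1) was -0.16 over the 9 genes and -0.01 over all genes tested. Of the 9 genes, 7 lay below 0, with Gas6 and Mfge8 among them at -0.02 and -0.03. Of all 16031 genes tested, 8174 lay below 0. All 9 had a mean of at least 10 normalized counts and entered the test, but Adgrb1 did so through WT 1 alone: its mean over the other 5 samples was 3.53.

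**Figure D2:**
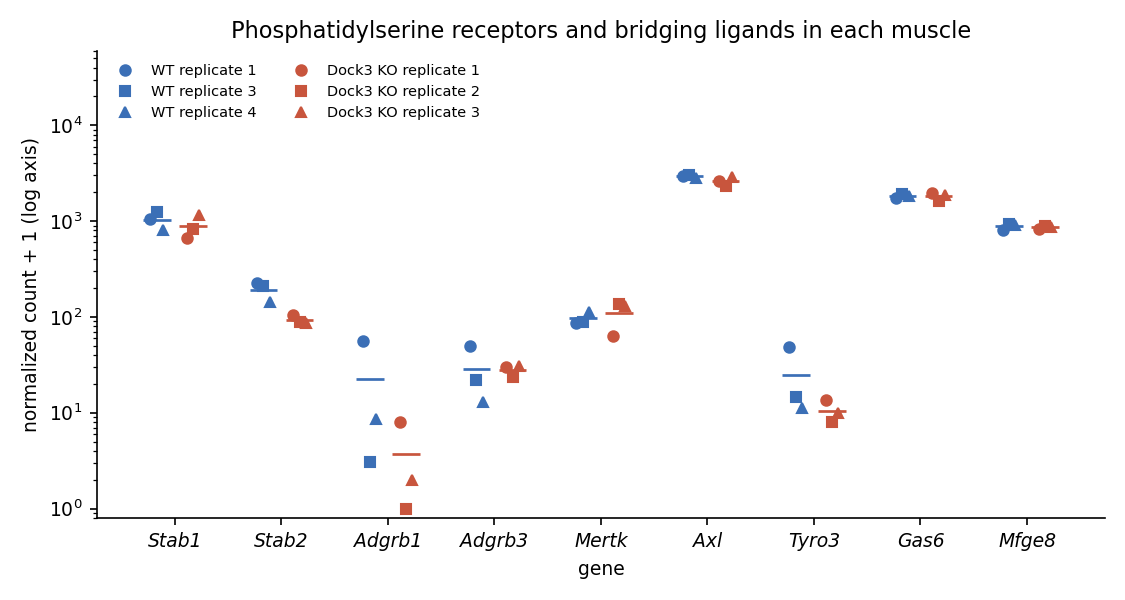
Normalized count + 1 of each gene in each muscle, on a log axis. Blue marks are WT replicates 1, 3 and 4 and red marks Dock3 KO replicates 1, 2 and 3, with a line at each group's mean. Stab2 is the only one of the 9 whose groups do not overlap, and the circle of WT 1 lies far above the other WT marks for Adgrb1 and Tyro3.

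**Figure D3:**
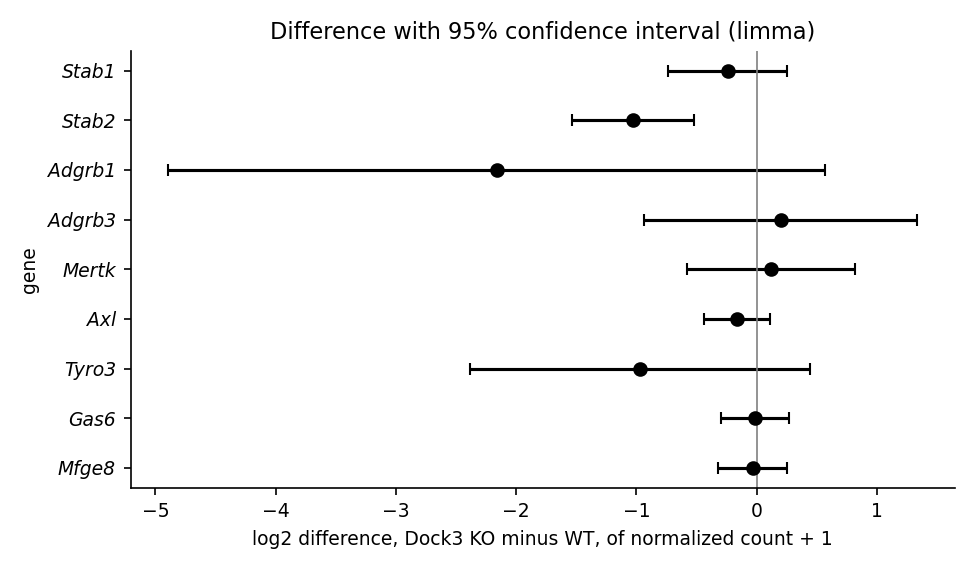
Log2 difference between Dock3 KO and WT (x axis) of the 9 genes (y axis), with the 95% confidence interval from limma. Stab2 lies at -1.03 and its interval does not reach 0 before adjustment; the intervals of Gas6, Mfge8 and Axl are narrow, and those of Adgrb1, Tyro3 and Adgrb3 are wide.

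Stab2 encodes stabilin-2, a scavenger receptor of sinusoidal and lymphatic endothelium that takes up hyaluronan and binds phosphatidylserine. WT 1, 3 and 4 had 224, 209 and 143 normalized counts, and Dock3 KO 1, 2 and 3 had 103, 88.4 and 85.4. Each knockout value lay below each WT value, which held, with the knockout lower, for 8.65% of all genes tested. The knockout mean was 48.1% of the WT mean (92.2 ± 9.30 against 192 ± 42.9 normalized counts, SD, n = 3 each). On the log2 scale the difference was -1.03 (standard error 0.228, 95% confidence interval from -1.54 to -0.52). Its adjusted p was 0.0859 (limma), so Stab2 did not pass the threshold. It ranked 221st by p. The two-sided exact permutation p was 0.1, the smallest that 3 against 3 samples allow. Over 17 alternatives the difference ranged from -1.30 to -0.90, with adjusted p-values from 0.0413 to 0.485. As the groups do not overlap, no change of pseudocount or filter and no sample left out could turn its sign. Stab2 passed in 1 of the alternatives, in which all samples were scaled to the same total and the median of all genes moved to -0.28.

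Stab1 encodes stabilin-1, the related receptor of macrophages and sinusoidal endothelium. WT muscles had 1057, 1231 and 803 normalized counts and Dock3 KO muscles 663, 826 and 1159. The groups overlapped, with the lowest value in Dock3 KO 1 and the highest in WT 3. The log2 difference was -0.24 with a 95% confidence interval from -0.73 to 0.25 (adjusted p 0.783, limma). Stab1 per Stab2, as a ratio of normalized counts per kb, was 4.03, 5.02 and 4.78 in WT and 5.49, 7.95 and 11.5 in Dock3 KO. Every knockout ratio was above every WT ratio (exact two-sided permutation p = 0.1, the smallest possible). The scale of each library cancels in this ratio.

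Stabilins are expressed by a minority of the cells in muscle, and in bulk tissue fewer cells of a type and less RNA per cell cannot be told apart. Of 6 markers of lymphatic endothelium, 5 had a log2 difference below 0, 1 an unadjusted p under 0.05 and none was called by limma, with a median of -0.24 and summed values of 725 to 1292 in WT and 732 to 833 in Dock3 KO. The highest sum was that of WT 1, where Reln, a gene also expressed by neurons, gave 528. Without WT 1 the WT sums were 725 to 877, 4 of the 6 markers lay below 0, the median was -0.10 and Reln had a log2 difference of 0.19. Flt4, a growth factor receptor of lymphatic endothelium, was that 1, at 141, 151 and 164 in WT and 116, 81.4 and 114 in Dock3 KO, with no overlap. Its log2 difference was -0.56 (adjusted p 0.379, limma). Lyve1, the hyaluronan receptor of the same cells, overlapped and had a log2 difference of -0.19. Of 8 markers of blood endothelium, 7 lay below 0 and none was called or had an unadjusted p under 0.05, with a median of -0.13 and sums of 6184 to 8724 in WT and 6318 to 6952 in Dock3 KO. Without WT 4, which had the highest sum, 2 of the 8 lay below 0 and the median was 0.08. Of 12 macrophage markers, 10 lay below 0, 1 had an unadjusted p under 0.05 and none was called, with a median of -0.24. Their sums did not overlap, at 6617 to 7392 in WT and 5624 to 6562 in Dock3 KO. Lyz2, the marker with that p, gave the largest part of the sum in every sample. It had 2238, 2124 and 2625 in WT and 2032, 1737 and 1593 in Dock3 KO, so the sums follow Lyz2 more than any other marker. The part of these cell types in the Stab2 difference was not tested.

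**Figure D4:**
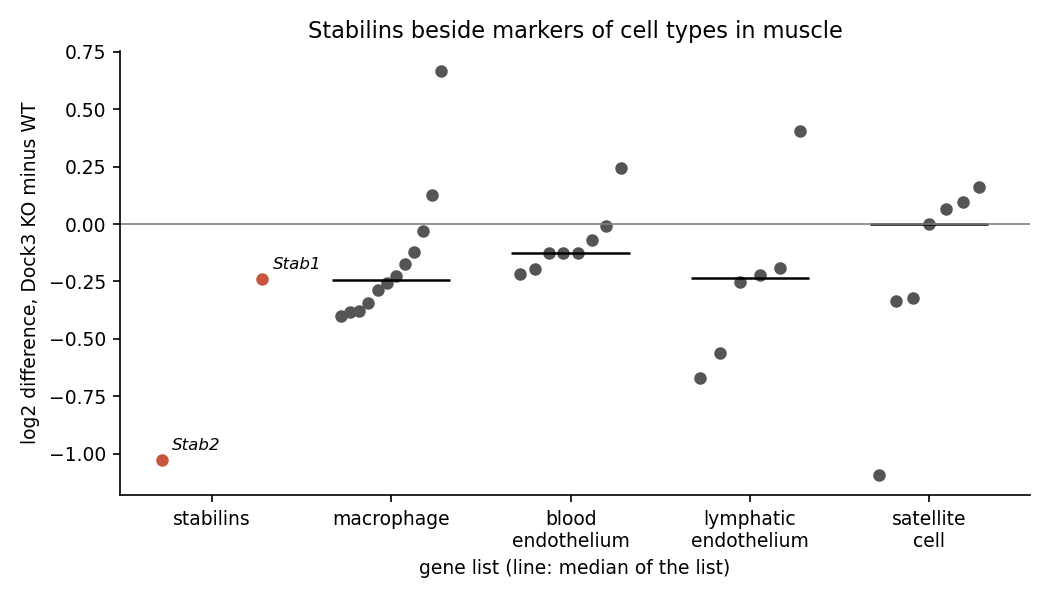
Log2 differences (Dock3 KO minus WT) of Stab1 and Stab2 (red) and of the tested markers of 4 cell types (grey), with a line at each list's median. Stab2, at -1.03, lies below every macrophage and endothelial marker shown, and of the satellite cell markers Pax7 alone is lower, at -1.09.

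Axl encodes the TAM kinase with the strongest preference for Gas6. Its normalized counts were 2941, 3043 and 2784 in WT muscles and 2646, 2334 and 2872 in knockouts. The groups overlapped, and the log2 difference was -0.16 with a 95% confidence interval from -0.44 to 0.11 (adjusted p 0.728, limma), that is, between 0.737 and 1.08 of the WT level. Mertk, the TAM kinase through which macrophages engulf dying cells, had 86.3, 88.3 and 112 in WT muscles and 62.6, 137 and 129 in knockouts. Dock3 KO 1 was the lowest of the 6 samples and the other knockouts the highest, so that the log2 difference of 0.12 turned to -0.04 without Dock3 KO 3 and to -0.08 without Dock3 KO 2. Its interval with all samples reached from -0.58 to 0.82 (adjusted p 0.945, limma).

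Tyro3, the TAM kinase best known from brain, had 47.4, 13.6 and 10.3 normalized counts in WT muscles against 12.4, 6.92 and 9.04 in knockouts. WT 1 was several times as high as any other sample, and the remaining 5 lay between 6.92 and 13.6. The log2 difference was -0.97 with all samples (adjusted p 0.673) and -0.33 without WT 1 (adjusted p 0.899, limma). Per kilobase, Axl made up 93.4% to 97.0% of the summed TAM kinases in every sample, Mertk 2.66% to 6.35% and Tyro3 0.225% to 1.25%. The mean Axl share was 95.7% ± 0.606 for WT against 95.1% ± 1.79 for Dock3 KO (n = 3 each, SD), and the groups overlapped (exact two-sided permutation p = 0.6).

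Adgrb1 and Adgrb3 encode adhesion G protein-coupled receptors, also called BAI1 and BAI3, which bind ELMO through their tails and promote myoblast fusion. Both are mainly brain genes. Adgrb1, which binds phosphatidylserine, had 54.9, 2.05 and 7.52 normalized counts in WT muscles against 7.08, 0 and 1.01 in knockouts. WT 1 stood far above the rest, and WT 3 lay below Dock3 KO 1, so the groups overlapped. The log2 difference was -2.16 with all samples, with a standard error of 1.23, and -1.01 without WT 1 (adjusted p 0.609 and 0.847, limma). With Dock3 KO 2 at 0, the pseudocount bears on this value, which was -3.38 with a pseudocount of 0.1 and -0.96 with 10. Adgrb3, which binds C1q-like proteins, had 49.3, 21.1 and 11.9 in WT muscles and 29.1, 22.6 and 29.5 in knockouts. Its log2 difference was 0.20 with all samples, 0.73 without WT 1 and -0.26 without WT 4, so no direction held. The span of Adgrb3 overlaps 21 other annotated genes on its own strand in GENCODE M21. Its value may hold reads of those where exons are shared, which was not tested.

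The low-level receptors were highest in the same sample as the brain markers. WT 1 held the highest value of Adgrb1, Tyro3 and Adgrb3, and likewise of Adgrb2, the brain relative of Adgrb1, at 53.5 there and between 2.27 and 12.9 in the other 5 samples. Stab2 was also highest in WT 1, but there by 1.27 times the mean of WT 3 and 4, where Adgrb1 was 11.5 times and Tyro3 3.97 times as high. Without WT 1 and Dock3 KO 1 together, the log2 differences were -0.98 for Stab2, -0.53 for Tyro3, -1.85 for Adgrb1 and 0.67 for Adgrb3, and none of the 9 was called (limma, 2 samples a group). The part of brain transcripts in the values of Adgrb1, Tyro3 and Adgrb3 was not tested beyond this.

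**Figure D5:**
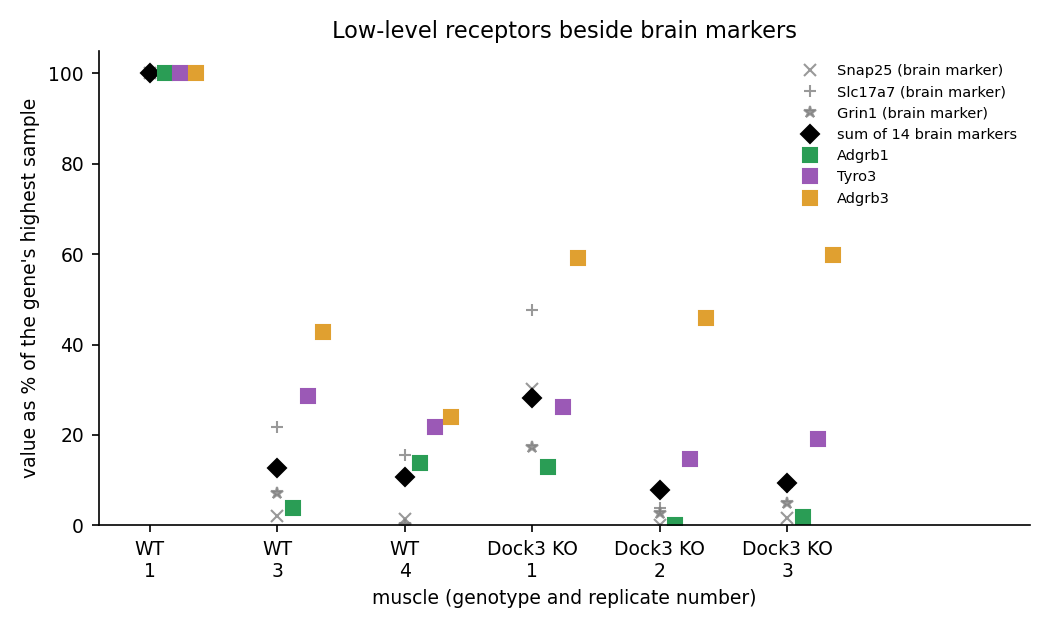
Values of 3 low-level receptors, 3 brain markers and the sum of 14 brain markers in each muscle, as a percentage of each one's highest sample. Every series has its highest value in WT 1, where the brain marker sum was 1211 normalized counts, against 340 in Dock3 KO 1 and 95.8 to 153 in the other 4 samples.

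The bridging ligands had the differences closest to 0 of the set. Gas6, the vitamin K-dependent ligand of the TAM kinases, had 1743, 1934 and 1838 normalized counts in WT muscles and 1976, 1616 and 1879 in knockouts. The groups overlapped fully, and both the lowest and the highest value were knockouts. The log2 difference was -0.02 with a 95% confidence interval from -0.30 to 0.27 (adjusted p 0.985, limma). Mfge8, which links phosphatidylserine to alpha v integrins, had 798, 930 and 914 in WT muscles and 821, 899 and 860 in knockouts, which lay within the WT range. Its log2 difference was -0.03 with an interval from -0.32 to 0.25 (adjusted p 0.967, limma). Within groups, the coefficient of variation of Mfge8 was 8.15% in WT and 4.54% in Dock3 KO and that of Gas6 5.17% and 10.2%, while that of Adgrb1 was 135% and 142%.

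Ligand and receptor were also set against each other. Gas6 per Axl, as a ratio of normalized counts per kb, was 1.17, 1.26 and 1.304 in WT and 1.48, 1.37 and 1.29 in Dock3 KO, and the groups overlapped (exact two-sided permutation p = 0.2). Pros1, which encodes protein S, the other TAM ligand, had 537, 357 and 417 normalized counts in WT muscles and 376, 363 and 369 in knockouts. Its log2 difference was -0.22 (adjusted p 0.742, limma). WT 1 was its highest sample, and the WT mean without it was 387 normalized counts, against a Dock3 KO mean of 370. Gas6 per Pros1, per kb, ranged from 5.21 (WT 1) to 8.68 in WT and from 7.13 to 8.43 in Dock3 KO. Gas6 was thus the more abundant TAM ligand transcript in every sample.

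The wider pathway was read from 4 lists. Of 24 other phosphatidylserine receptors and ligands, 17 were tested and none was called in either direction by limma, 1 had an unadjusted p under 0.05, and the median log2 difference was -0.01. Thbs1, which encodes thrombospondin-1, a matrix protein that bridges dying cells to CD36 and integrins, was that 1. WT muscles had 857, 590 and 370 normalized counts and knockouts 1546, 1172 and 1211, with no overlap. Its log2 difference was 1.18 (standard error 0.265), and its adjusted p of 0.0892 (limma) missed the threshold. Without WT 1, its highest WT sample, the log2 difference was 1.47 and Thbs1 passed (adjusted p 0.0241), and it missed the threshold without any one of the other 5 samples. Cd300a, an inhibitory lipid receptor of leukocytes, had 59.5, 71.5 and 42.5 in WT and 77.6, 74.6 and 74.1 in Dock3 KO, with an adjusted p of 0.678, and Lrp1, a large endocytic receptor, had a log2 difference of 0.23 with an adjusted p of 0.689 (limma).

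Of 15 genes that move phosphatidylserine across the membrane, 13 were tested, none was called by limma or had an unadjusted p under 0.05, and the median was -0.03. The 3 with the smallest p were the flippase genes Atp11b and Atp8a2, at log2 differences of -0.18 and -0.69, and Plscr1 at 0.49, all with adjusted p-values between 0.785 and 0.844 (limma). Atp8a2 was at 309 in WT 1 and between 27.97 and 98.0 in the other 5 samples, and its log2 difference turned to 0.34 without WT 1. The median of the list turned to 0.06 without that sample. Of 14 genes of the ELMO-DOCK-Rac module, all tested, Dock3 itself was called lower (log2 difference -4.76, adjusted p 0.0140, limma) and no other was called or had an unadjusted p under 0.05. The Dock3 difference was -5.81 without Dock3 KO 1 (adjusted p 0.00027), and without any one of the other 5 samples it lay between -4.92 and -4.21 with adjusted p-values from 0.0611 to 0.0876. Gulp1, an adaptor that binds the tail of stabilin-2, had 131, 113 and 131 in WT and 208, 196 and 123 in Dock3 KO (log2 difference 0.45, adjusted p 0.565), and Dock4 a log2 difference of -0.31 (adjusted p 0.587). Elmo1, Elmo2 and Dock1, which receive the signal of several of these receptors, had log2 differences of 0.03, -0.03 and 0.06, and of 0.30, 0.13 and -0.02 without WT 1. Of 11 genes for the processing and control of TAM signalling, all tested, none was called or had an unadjusted p under 0.05, with Socs1, Nr1h3 and Ggcx at log2 differences of 0.81, 0.51 and -0.25 and adjusted p-values of 0.613, 0.618 and 0.740 (limma).

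Patterns over the 6 samples were compared by Pearson's r of log2 values, among 138 other tested genes of the lists, as a description of these samples. Stab2 was most like Dock3 (r = 0.923), Cdh15 (0.868) and Dock2 (0.775), and Stab1 most like Dock4 (0.845), Vwf (0.811) and Lyve1 (0.787). Mertk was most like Itgb3 (0.937), Abca1 (0.901) and the macrophage marker Cd163 (0.884), Axl like Rxra (0.926) and Ngfr (0.903), and Tyro3 like Prox1 (0.924), Adgrb1 (0.903) and Dock5 (0.900). Adgrb1 was most like Rhog (0.936), Cd300lf (0.923) and C1ql3 (0.919), and Adgrb3 like Tmem30b (0.872), Reln (0.815) and Atp8a2 (0.774). Gas6 was most like Cspg4 (0.957), Heyl (0.919) and Vkorc1 (0.903), and Mfge8 like Ggcx (0.883), Nr1h2 (0.874) and Crkl (0.809). Adgrb1, beside Tyro3, was the 1 case in which a member was among another member's nearest 3. The points share their libraries, so a single sample such as WT 1 can set such a likeness. A difference between the groups can set one too. Stab2, Dock3 and Cdh15 each had every knockout value below every WT value, so their likeness restates that difference at least in part.

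The genes lie on 7 chromosomes in GENCODE M21 (GRCm38, 1-based). Stab2 (ENSMUSG00000035459) spans 86841198 to 87008025 on the minus strand of chromosome 10, and this span overlaps 5 genes on the other strand. Reads from shared exons cannot be told apart where counting ignores strand, but whether the exons overlap was not tested. Stab1 (ENSMUSG00000042286) spans 31139013 to 31168641 on the minus strand of chromosome 14. Mertk and Tyro3 are both on chromosome 2, 8.88 Mb apart, and Axl and Mfge8 both on chromosome 7, 53.3 Mb apart. Genes whose span overlaps that of a member, on either strand, were left out of the search for similar transcripts. No transcript of a remaining gene matched the longest transcript of any member over at least 100 bases at 80% identity or more.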

How the data were processed

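RNA of 3 WT and 3 Dock3 KO tibialis anterior muscles was depleted of ribosomal RNA and sequenced as read pairs from stranded libraries, per the labels' protocols. The authors deposited 1 table of normalized counts per gene, recorded here as a signal because its values are not whole numbers. FastQC, Trim Galore 0.4.5, Salmon 0.12.0, DESeq2 1.22.1, R 3.5.3 and the builds mm10 and GRCm38 are named per the submitters' processing notes, with no role or order. The authors' gene annotation, their sample factors and whether counting used strand are not given in the sources used here. A fold change depends on those factors, and depth in reads is unknown, so no counting intervals are given.

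All 54393 identifiers were found in GENCODE M21, which gave symbols, positions and exon lengths. Genes with a mean of at least 10 were tested on log2(normalized count + 1), which understates changes of low genes, with limma 3.58.1 in R 4.3.3 (eBayes with trend, no covariates, all 6 samples), and p-values were adjusted by Benjamini-Hochberg over 16031 genes. The fit was tested on simulated data. The members and lists were chosen with earlier results of these data known. Named genes are the 9 members, Dock3, called list genes, the 3 smallest p of each pathway list and the 3 most similar list genes of each member, and others, as well as the brain list, were chosen after their values were seen. One gene that this rule names for Axl is not reported here. Same-numbered samples are not paired in the labels. Transcripts were aligned with blastn 2.17.0, and other steps used Python 3.11.15 with pandas 2.3.3, numpy 2.4.6 and matplotlib 3.10.9. The alternatives were other pseudocounts (0.1 and 10), filters (none and 50), scalings, prior variances, a replicate block and leaving out samples, and, added after seeing the data, Gm42418 as a covariate, both replicates 1 left out, and the lists without each sample in turn.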

Additional observations from a re-analysis of the deposited data

How the results depend on the processing

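None of the 9 members was called in 16 of the 17 alternatives, and 1, Stab2, was called with the same total in every sample. With that scaling the median of all genes moved to -0.28, 177 genes were called (136 lower, against 94 of 165 in the setting reported above), and the log2 differences of Adgrb3 and Mertk were -0.063 and -0.15. A prior variance without trend gave 104 called genes, and log2 Gm42418 as a covariate 57, with Stab1 at 0.24 and Gas6 at 0.052. With the replicate block, 127 genes and no member were called, Adgrb3 stood at -0.14 and Gas6 at 0.069. The block fit has 1 residual degree of freedom, and the deviations of same-numbered samples correlated at 0.065 and 0.0066 across genes. With so few shared numbers, these correlations cannot settle whether same-numbered samples share a batch. Leaving out 1 sample gave 98 to 159 called genes, the lowest without WT 4 (98), Dock3 KO 2 (100) and WT 3 (111), and called no member. Over these fits Adgrb3 ranged from -0.26 to 0.73, Mertk from -0.077 to 0.48, Gas6 from -0.076 to 0.069 and Mfge8 from -0.10 to 0.0081. The cause of these changes was not tested. Stab2, Axl, Tyro3 and Adgrb1 stayed below 0 in every alternative that tested them, but Axl was at -0.0029 with log2 Gm42418 as a covariate. A change of filter or prior variance leaves the log2 difference of any tested gene unchanged, so those settings could not have turned a sign. For Stab2, whose groups do not overlap, leaving out samples or changing the pseudocount could not have done so either. With fewer than 50 normalized counts on average, Adgrb1, Adgrb3 and Tyro3 were not tested at a minimum mean of 50.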

Other observations

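Col15a1, a collagen gene on a list of 8 markers of fibro-adipogenic progenitors (mesenchymal cells between the fibres), was called higher in Dock3 KO. WT muscles had 1021, 847 and 900 normalized counts and knockouts 1644, 1591 and 2072, with a log2 difference of 0.93 (standard error 0.146, adjusted p 0.0134, limma). The adjusted p was 0.0811 without WT 3, 0.0739 without WT 4 and 0.0517 without Dock3 KO 3, with log2 differences of 0.87, 0.92 and 0.81. It was the 1 gene called on that list, whose median was -0.14, and with all samples no gene was called by limma on the other lists that follow. The median was -0.04 for 8 muscle fibre markers, -0.00 for the 7 tested of 8 satellite cell markers, -0.20 for 8 markers of smooth muscle and pericytes and -0.02 for 8 Schwann cell markers, with 0, 1, 1 and 1 genes at an unadjusted p under 0.05. The smooth muscle median was 0.12 without WT 3, and the satellite cell median was -0.32 without Dock3 KO 1. All 5 adipocyte markers and all 5 red blood cell markers lay above 0, with medians of 0.70 and 0.63 and with 2 and 0 genes at an unadjusted p under 0.05. The red blood cell sum was 97653 in Dock3 KO 1, 46254 and 36950 in Dock3 KO 2 and 3 and 28542 to 54916 in WT, and the median was 0.23 without Dock3 KO 1. The adipocyte median was -0.10 without WT 4 and 0.40 without Dock3 KO 1, and 1 adipocyte marker was called without WT 3. None of 5 neutrophil markers reached a mean of 10.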
